A study of Rattus norvegicus with 53 samples.

Results

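The enzymes that build and break down glycogen in muscle, and the proteins that switch them on and off, were followed in L6 rat muscle cells with and without insulin. The group was defined by name as 9 genes: Gyg1, Ugp2, Gys1 and Gbe1 of synthesis, Pygm and Pygb of breakdown, and Gsk3a, Gsk3b and Ppp1r3c of control. Each gene was read at the probe set that carries its symbol alone in the annotation of the array, and at the brightest one, by mean over all arrays, where there were several. By this rule 8 of the 9 genes had a value, in 10 of 31099 probe sets, and all 8 lay among the 11577 tested of 14218 genes. Ppp1r3c, which encodes a subunit that brings protein phosphatase 1 to glycogen, was matched to no probe set by symbol, synonym, gene identifier or accession and was not analysed here.

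Glycogen is the branched glucose store of muscle. Glycogenin (Gyg1) starts each particle by attaching glucose to itself, UDP-glucose pyrophosphorylase (Ugp2) makes the activated glucose, glycogen synthase (Gys1) lengthens the chains and the branching enzyme (Gbe1) adds the branch points, whereas phosphorylase (Pygm in muscle, Pygb as the form first described in brain) releases glucose from the chain ends. Insulin is known to switch synthase on mainly through its phosphorylation state: signaling through Akt inhibits the kinases encoded by Gsk3a and Gsk3b, and protein phosphatase 1 removes the inhibitory phosphates. The arrays report transcript levels only, and none of these protein states was measured.

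L6 is an established rat line of skeletal muscle myoblasts. All cultures of the series were differentiated into myotubes in low serum and kept without serum before the course began. Insulin cultures then received 20 nM insulin and control cultures received 0 nM. Samples were taken every 20 min and pooled by hour, 3 to a pool, in 8 hourly pools, and time 0 was sampled before insulin in both cultures. The plates were separate for each time, and the whole course was run on 3 days. The letters a, b and c of the labels are taken here to mark these days, which the labels do not state. The letters are repeats of 1 cell line. Unless stated otherwise, p-values come from a fit without the letter. These p-values measure the spread between arrays of a group and treat the hours of a letter as independent. There were 53 arrays in 18 groups of culture and hour, with 3 arrays in each group except the insulin culture of hour 3, which had 2. For the last pool the labels disagree on the first sampling time. It is treated here as hour 8.

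The levels are log2 values, and the array medians ran between 6.296 and 6.373. Precision is set by how many arrays a group has. Of 10 markers of differentiated myotubes, 9 were tested, and skeletal actin (Acta1) averaged 13.5, embryonic myosin (Myh3) 13.4 and myogenin (Myog) 12.4. Tnnc1 averaged 13.48 and Tnnt3 12.45, while Ckm averaged 9.50, Chrna1 7.40 and Des 7.30. Myh8 averaged 5.32, near the lowest level tested of 5.04. None of the 9 was called between the cultures. All 4 genes of proliferating cells were tested too, with Mki67 at 10.0 and Cdk1 at 10.2. The mean level of these 4 was between 8.64 and 9.09 on the 12 arrays that letter b has at hours 0 to 5 and between 9.06 and 10.3 on the other 41 arrays, so that on these 12 arrays it lay at the low end, with a slight overlap. Over hours 1 to 8 it ranged from 8.75 to 10.3 in insulin cultures and from 8.64 to 10.3 in control cultures. Of 8 markers of other cell types, 5 were below the lowest level tested, among them Ptprc of leukocytes at 4.66, Pecam1 of endothelium at 3.97 and Adipoq of adipocytes at 4.60, and Cdh5 was matched to no probe set. The mean of the 7 measured ranged from 4.67 to 5.00 in insulin cultures and from 4.70 to 5.02 in control cultures. The remaining markers, Cd68 of macrophages and Pdgfra of fibroblasts, averaged 5.57 and 6.42. Cd68 was higher with insulin over hours 1 to 8 by 0.14 (limma adjusted p = 0.038), and Pdgfra was lower over hours 5 to 8 by 0.32 (log2 difference -0.32, limma adjusted p = 0.016). The part of these markers, and of the proliferation genes, in the results below was not tested.

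Promoter sequences are shown because several members share a short motif in the window around the start site of the RefSeq promoter table. They are RefSeq sequences of build GRCr8 covering 250 bases before to 50 bases after each start, found for all 9 genes and searched on both strands. The core ACGTG, the letters read by hypoxia-inducible factors and, within CACGTG, by E-box factors, occurred in 6 of the 9 promoters, against 19.3% of 33469 promoters of 300 bases. The full E-box CACGTG, which contains the core on each strand, occurred in 3 of the 9, against 6.42% of all. The following 5 stretches, read 5′ to 3′ on the strand of the gene, hold the match of each measured member, with the matching letters in capitals:
Gyg1 (chr2:104582859-104582888, minus strand): agcctgcgcggcCACGTGacggccgctata
Gsk3b (chr11:76153427-76153456, minus strand): tttgccctcgttCACGTGatatatatatat
Gbe1 (chr11:22181238-22181266, plus strand): gccgcgctgaggACGTGtgtcccgggctc
Pygm (chr1:213119708-213119736, plus strand): ccaagaccctccCACGTccggggaggcgt
Pygb (chr3:160072028-160072056, plus strand): aatctctccattCACGTtctcttcctccg
The matches began 99 bases before the table's start site in Gyg1, 195 in Gsk3b, 26 in Gbe1, 85 in Pygm and 101 in Pygb. For Pygm and Pygb that site is the first base of the gene span given below, but it lies inside the span by 261 bases in Gyg1, 1416 in Gsk3b and 82 in Gbe1. The matches of these 3 genes therefore lie within their spans, by 162, 1221 and 56 bases. In Pygm and Pygb the capitals are the core as read on the other strand. The letters TGACG, part of the cyclic AMP response element, were in the Gyg1 promoter, overlapping its E-box by 2 bases, and in that of Gsk3a, against 21.2% of promoters, and GTAAACA, a FOXO motif, was in none of the 9, against 3.78% of all. A match describes these letters only.

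Most of these transcripts were close to their control level in insulin cultures. Over hours 1 to 8 the insulin minus control differences of the 8 genes ran between -0.16 and 0.06 on the log2 scale, with a median of -0.01, against a median of 0.00 over all probe sets tested. Of the 8, 4 lay above 0 and 4 below. Only 1, Gyg1, passed the test, called here at an adjusted p under 0.05 by limma over all tested probe sets, and it was lower with insulin. Over all probe sets 6.63% were called lower and 5.53% higher in the same comparison, so that 1 of 8 is near that background. Gyg1 was again the only member called over hours 5 to 8, against 5.33% of probe sets lower and 4.02% higher. No member was called over hours 1 and 2, where no probe set of the array was called and 2079 had an unadjusted p under 0.05, nor for a change between hours 1 and 2 and hours 5 to 8, where 1.84% of probe sets were called.

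**Figure D1:**
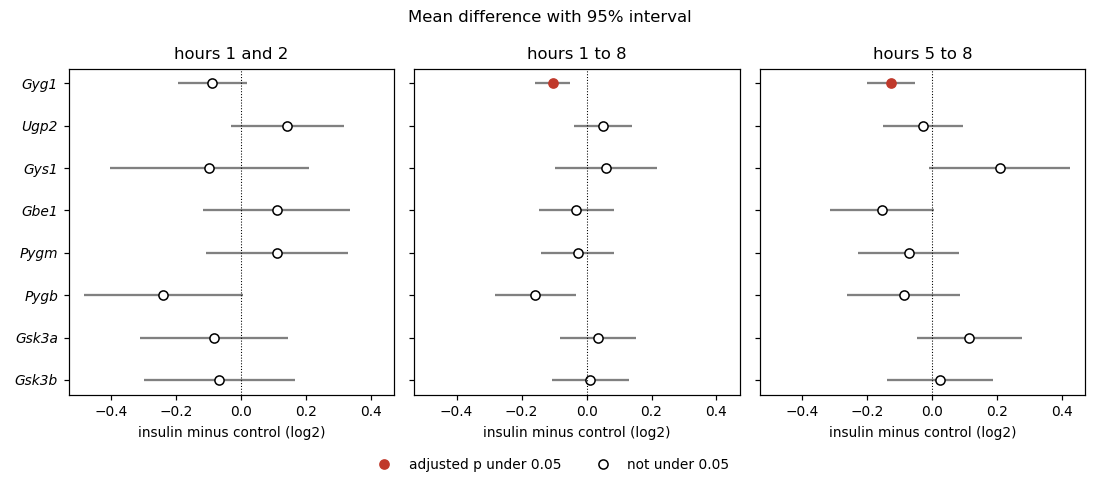
Insulin minus control difference (log2) of the 8 measured genes over hours 1 and 2, hours 1 to 8 and hours 5 to 8, with points for the fitted mean and lines for its 95% interval. Filled points mark an adjusted p under 0.05: Gyg1 at -0.10 over hours 1 to 8 and at -0.13 over hours 5 to 8, while the others are open.

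The fit with the letter as a block removes only a shift that a letter has at every hour and in both cultures. It called 2 members over hours 1 to 8 (Gyg1 and Pygb, both lower, against 15.2% of probe sets called lower), 2 over hours 5 to 8 (Gyg1 lower and Gys1 higher, against 12.5% lower and 9.34% higher) and 1 for the change between early and late hours (Gys1, against 6.23% called higher). A fit with 1 mean per letter and culture, which takes the 3 letters as the replicates, called none of the 8 over either window or for that change, with the block or without it. Without the block that fit called 0 of all probe sets over hours 1 to 8, and with it 51 higher and 104 lower.

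Gyg1 lies on chromosome 2 (chr2:104540927-104583038, GRCr8) and was among the brighter probe sets, above 93.0% of all. Over hours 1 to 8 its level was 10.01 at the lowest, 10.17 at the median and 10.40 at the highest of 23 insulin arrays, against 10.05, 10.29 and 10.40 in 24 control arrays. The ranges overlapped almost fully, while the middle of the insulin arrays was lower. The fitted means were 10.17 with insulin and 10.28 in control cultures, a difference of -0.10 ± 0.03 (SE) or 1.07-fold lower with insulin (95% interval -0.16 to -0.05, limma adjusted p = 0.0071).

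The separation of Gyg1 was clearest at hour 5. The 3 insulin arrays of that hour read 10.03, 10.14 and 10.17 in letters a, b and c, and the 3 control arrays 10.38, 10.31 and 10.32. The groups of that hour did not overlap, which held for 3.9% of probe sets in the same direction, and the difference of the hour was -0.22 (limma adjusted p = 0.35). At hour 4 they did not overlap either, with 10.20, 10.11 and 10.17 in insulin cultures and 10.26, 10.24 and 10.24 in control cultures, as in 4.26% of probe sets. Within letter and hour, insulin was lower in 20 of 23 differences, which 4.53% of probe sets matched or passed.

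The letters differed in how far Gyg1 was lower with insulin, by 0.18, 0.06 and 0.09 on average over hours 1 to 8 in letters a, b and c. Without letter a the difference was -0.08 (adjusted p = 0.12) and without letter c it was -0.11 (adjusted p = 0.082), so neither fit, on fewer arrays, kept the call. Without the 12 early letter b arrays the difference was -0.11 (adjusted p = 0.063). The adjusted p ran between 0.0016 and 1.00 over 15 alternatives, of which 8 passed. Before insulin the order was the other way: at time 0 the insulin cultures read 10.35, 10.24 and 10.24 and the control cultures 10.23, 10.11 and 10.22, higher in all 3 letters by 0.09 ± 0.07 (SE) on average (limma adjusted p = 1.00). These groups did not overlap either, as in 2.7% of probe sets at time 0. Relative to time 0 the difference over hours 1 to 8 was -0.19 ± 0.08 (SE, limma adjusted p = 1.00), in a comparison that called no probe set at all and gave 511 with an unadjusted p under 0.05.

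In the late hours Gyg1 averaged 10.17 in insulin cultures and 10.30 in control cultures. The difference over hours 5 to 8 was -0.13 ± 0.04 (SE, limma adjusted p = 0.021), and insulin was lower in 11 of 12 differences within letter and hour, as in 8.9% of probe sets. Without letter a it was -0.09 (adjusted p = 0.30) and without letter c -0.12 (adjusted p = 0.18), while array weights gave -0.07 (adjusted p = 0.19), and 7 of 15 alternatives passed. The genes whose group means followed Gyg1 most closely over the 18 groups of culture and hour were Anxa8 (Pearson r = 0.90), Rnh1 (r = 0.89) and Rps15 (r = 0.88), which share the arrays and their normalization with it.

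**Figure D2:**
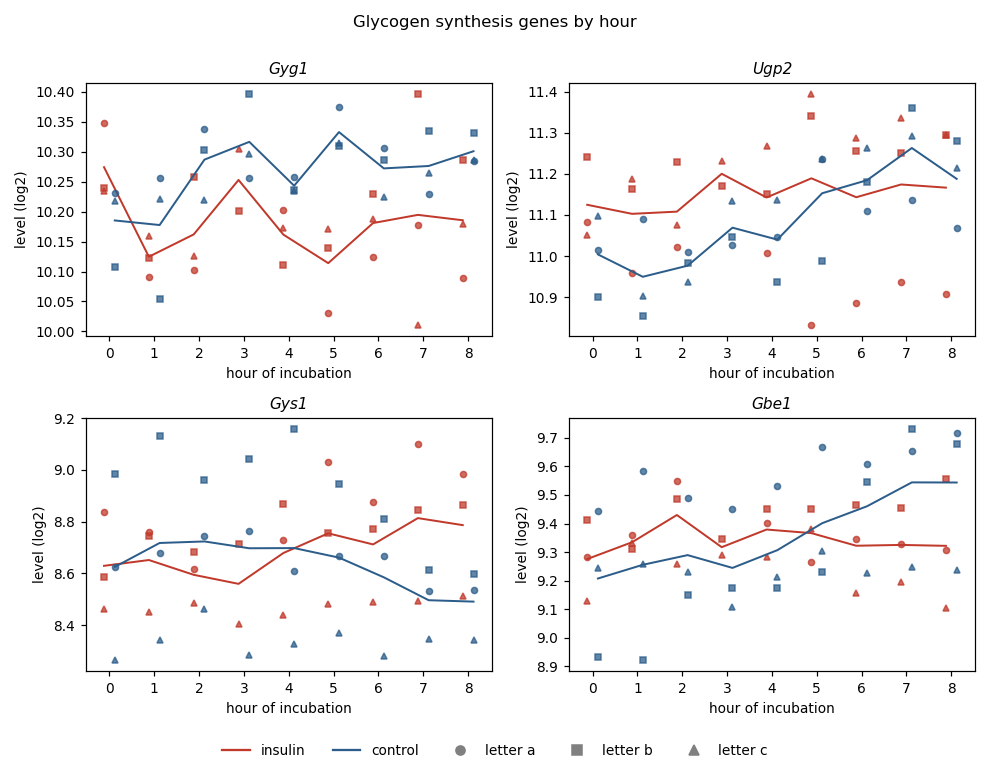
Level (log2) of the 4 glycogen synthesis genes against hour of incubation in insulin and control cultures, a point per array with its letter and a line through the group means. The insulin line of Gyg1 starts above the control line at time 0 and lies below it at all later hours, and the letter b control arrays of Gys1 and Gbe1 are 8.95 to 9.16 and 8.92 to 9.23 at hours 0 to 5.

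Ugp2, the brightest probe set of the group by mean level (above 96.7% of all), lies on chromosome 14 (chr14:99657637-99698573). It averaged 11.15 in insulin cultures and 11.10 in control cultures over hours 1 to 8, a difference of 0.05 (95% interval -0.04 to 0.14, limma adjusted p = 0.51). The letters went different ways, with mean differences of -0.16 for letter a, 0.15 for letter b and 0.12 for letter c. The letter a insulin arrays of hours 5 to 8 read 10.83, 10.89, 10.94 and 10.91 and its control arrays 11.24, 11.11, 11.14 and 11.07, whereas for letter c every insulin array was above its control array. Without letter a the difference over hours 1 to 8 was 0.14 and passed the test (limma adjusted p = 0.0056, 0.0056 to 1.00 over the alternatives), against 8.47% of probe sets called higher in that fit. Ugp2 was already higher at time 0, before insulin, with means of 11.125 in insulin cultures and 11.004 in control cultures. The time 0 differences were 0.07, 0.34 and -0.04 in letters a, b and c. Relative to time 0 the difference over all letters turned below 0, as given in the last section. In control cultures Ugp2 was 11.197 over hours 5 to 8 and 11.004 at time 0, a difference of 0.19 ± 0.10 (SE, limma adjusted p = 0.27).

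Gys1, the muscle form of glycogen synthase on chromosome 1 (chr1:105051916-105071763), was not called over hours 1 to 8, at 8.69 in insulin and 8.63 in control cultures (difference 0.06, 95% interval -0.10 to 0.22, limma adjusted p = 0.67). Its letters lay far apart. Over hours 6 to 8 the insulin arrays read 8.88, 9.10 and 8.98 for letter a, 8.77, 8.85 and 8.86 for letter b and 8.49, 8.50 and 8.51 for letter c. The control arrays of these hours read 8.67, 8.53 and 8.54 for letter a, 8.81, 8.61 and 8.60 for letter b and 8.28, 8.35 and 8.34 for letter c. Insulin was thus higher in 8 of 9 differences within letter and hour, as in 10.8% of probe sets, although the groups overlapped.

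Late in the course, over hours 5 to 8, Gys1 averaged 8.77 with insulin and 8.56 without, a difference of 0.21 ± 0.11 (SE, 95% interval -0.01 to 0.43), which did not pass (limma adjusted p = 0.28). With the letter as a block it did (adjusted p = 0.0067, 0.0067 to 1.00 over 15 alternatives, of which this was the only one to pass). Its difference changed between hours 1 and 2 and the late hours by 0.31 ± 0.19 (SE, limma adjusted p = 0.48, 0.039 with the block, and 0.25 with the block on 1 mean per letter). In letter b the control arrays were between 8.95 and 9.16 at hours 0 to 5 and then 8.81, 8.61 and 8.60, and at time 0 insulin was already lower by 0.40 in that letter. When these 12 letter b arrays were left out, the difference over hours 5 to 8 was 0.24 (adjusted p = 0.15).

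Gbe1, the branching enzyme on chromosome 11 (chr11:22181194-22446640), averaged 9.35 in insulin cultures and 9.38 in control cultures over hours 1 to 8 (difference -0.03, 95% interval -0.15 to 0.08, limma adjusted p = 0.77). At hours 6 to 8 insulin was lower in 9 of 9 differences within letter and hour, as in 7.77% of probe sets. The insulin arrays of these hours read 9.35, 9.33 and 9.31 for letter a, 9.46, 9.45 and 9.56 for letter b and 9.16, 9.19 and 9.10 for letter c, and the control arrays 9.61, 9.65 and 9.72, 9.55, 9.73 and 9.68, and 9.23, 9.25 and 9.24 in the same letters. The gap was widest for letter a and narrow for letter c.

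At hour 2, in contrast, Gbe1 was higher with insulin in all 3 letters, with 9.55, 9.48 and 9.26 against 9.49, 9.15 and 9.23 in control cultures. Over hours 5 to 8 the difference was -0.15 ± 0.08 (SE, limma adjusted p = 0.28), and the early to late change in the difference was -0.26 ± 0.14 (SE, limma adjusted p = 0.38). Neither passed with the block. Control cultures alone averaged 9.49 over hours 5 to 8 and 9.21 at time 0, a difference of 0.28 (95% interval 0.03 to 0.53, limma adjusted p = 0.20), in a comparison that called 6.48% of probe sets and no member. With the block this passed (adjusted p = 0.043, 0.026 to 0.90 over the alternatives), against 11.4% of probe sets called higher. The letters were unlike, with control arrays at 9.45, 8.93 and 9.25 at time 0 in letters a, b and c. At hours 5 to 8 they read 9.67, 9.61, 9.65 and 9.72 for letter a and 9.23, 9.55, 9.73 and 9.68 for letter b. Those of letter c, at 9.30, 9.23, 9.25 and 9.24, stayed near their time 0 level. Without letter b the difference was 0.11.

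**Figure D3:**
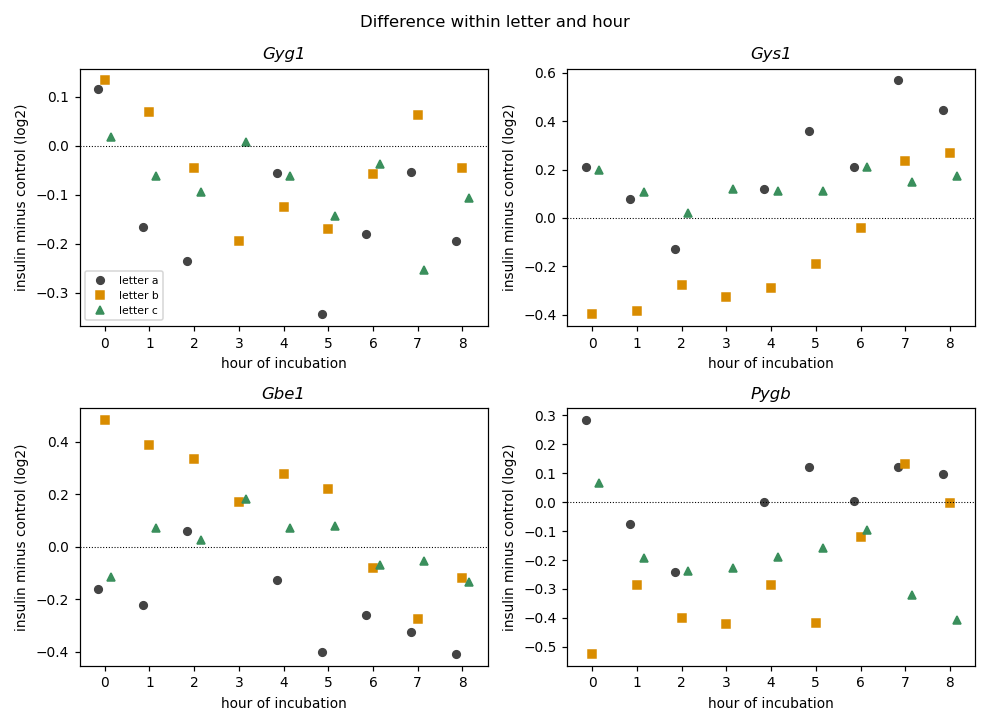
Insulin minus control difference (log2) within each letter and hour for Gyg1, Gys1, Gbe1 and Pygb against hour of incubation, a point per letter. Letter b runs between -0.40 and 0.27 for Gys1 and between 0.48 and -0.28 for Gbe1, and at hours 6 to 8 all 9 points of Gbe1 are below 0.

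Of the phosphorylases, Pygm has 3 probe sets and lies on chromosome 1 (chr1:213119805-213134622). The brightest averaged 6.28 over all arrays, above 49.2% of probe sets, the next 5.83, and the dimmest 4.44, below the lowest level tested of 5.04. Over hours 1 to 8 the brightest read 6.00 at the lowest, 6.27 at the median and 6.61 at the highest of the insulin arrays, against 5.76, 6.34 and 6.61 in control cultures. The difference was -0.03 (95% interval -0.14 to 0.08, limma adjusted p = 0.80), and at the next probe set it was 0.00 (95% interval -0.08 to 0.08, limma adjusted p = 0.98). The brightest differed over hours 5 to 8 by -0.07 (limma adjusted p = 0.69).

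Pygb, on chromosome 3 (chr3:160072141-160118930) and above 81.7% of probe sets, had the largest difference of the group over hours 1 to 8 in size. Its fitted means were 8.78 with insulin and 8.93 without, a difference of -0.16 ± 0.06 (SE, 95% interval -0.28 to -0.03), which did not pass (limma adjusted p = 0.091). With the letter as a block it passed (adjusted p = 0.0045, 0.0045 to 1.00 over 15 alternatives, of which 2 passed). Insulin was lower in all 8 differences within letter and hour of hours 1 to 3, as in 6.14% of probe sets.

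At hours 1 and 2 the insulin arrays of Pygb read 8.68 and 8.71 for letter a, 8.25 and 8.41 for letter b and 8.64 and 8.71 for letter c, and the control arrays 8.76 and 8.96, 8.54 and 8.80, and 8.84 and 8.95. These values were lower with insulin in each letter, by 0.24 ± 0.12 (SE) over the fit, but the test did not pass (log2 difference -0.24, limma adjusted p = 0.55). At later hours the letters differed in direction. Averaged over hours 5 to 8, letter a was higher with insulin by 0.09 on average, letter b differed by -0.10 and letter c by -0.25. At time 0, before insulin, letter b already differed by -0.52, letter a by 0.28 and letter c by 0.06.

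On average Pygb was higher late than at time 0 in both cultures, without passing the test. In insulin cultures the letters differed, with time 0 arrays at 8.94, 8.11 and 9.02 in letters a, b and c. Their arrays of hours 5 to 8 read 9.05 to 9.14, 8.50 to 8.89 and 8.90 to 8.98. Letter c was thus lower late. Without the letter b arrays of hours 0 to 5 the insulin difference from time 0 was -0.024. In control cultures every array of hours 5 to 8 was above the time 0 array of its letter. Over all letters Pygb averaged 8.92 over hours 5 to 8 and 8.69 at time 0 in insulin cultures, a difference of 0.23 ± 0.14 (SE, limma adjusted p = 0.64, 1.46% of probe sets called), and in control cultures 9.004 and 8.749, a difference of 0.26 ± 0.14 (SE, limma adjusted p = 0.32). With the block the control difference passed (adjusted p = 0.041, 0.041 to 0.61 over the alternatives), against 11.4% of probe sets called higher. It was the only 1 of 11 alternatives to pass. The test for any change over time in insulin cultures passed with the block too (adjusted p = 0.034, against 5.68% of probe sets called).

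**Figure D4:**
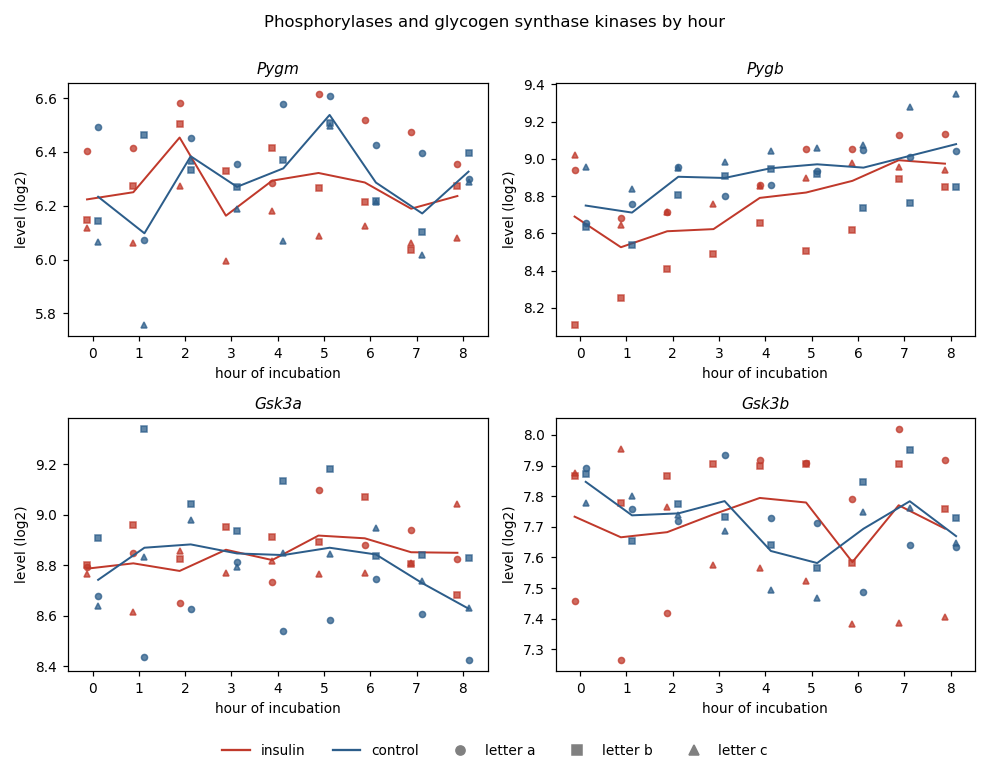
Level (log2) of the 2 phosphorylase genes and the 2 glycogen synthase kinase 3 genes against hour of incubation in insulin and control cultures, a point per array with its letter and a line through the group means. The insulin arrays of Pygb are below the control arrays of their own letter at hours 1 to 3, and the letter a insulin arrays of Gsk3b are 7.27 to 7.46 at hours 0 to 2 and 7.79 to 8.02 from hour 4.

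Neither glycogen synthase kinase gene was called. Gsk3a, on chromosome 1 (chr1:89943669-89953514), averaged 8.85 in insulin cultures and 8.81 in control cultures over hours 1 to 8 (difference 0.04, 95% interval -0.08 to 0.15, limma adjusted p = 0.74). Letter a was higher with insulin at each of its 7 measured hours, by 0.29 on average, against -0.13 for letter b and -0.02 for letter c. Over hours 5 to 8 the difference was 0.11 (95% interval -0.05 to 0.28, limma adjusted p = 0.48), and without letter a it was 0.00. Gsk3b, on chromosome 11 (chr11:76004502-76154665), averaged 7.71 with insulin and 7.70 without (difference 0.01, 95% interval -0.11 to 0.13, limma adjusted p = 0.92).

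Within that average the letters of Gsk3b differed in direction. The insulin arrays of letter a read 7.46, 7.27 and 7.42 at hours 0 to 2 and between 7.79 and 8.02 from hour 4, while those of letter c read 7.88, 7.95 and 7.76 at hours 0 to 2 and 7.38, 7.39 and 7.41 at hours 6 to 8. The control arrays of letters a and c lay between 7.47 and 7.93 throughout. Over hours 5 to 8 the mean difference was thus 0.29 for letter a, 0.02 for letter b and -0.23 for letter c, and the fitted mean 0.03 (95% interval -0.14 to 0.19, limma adjusted p = 0.92).

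Of the other tests, no member was called at any single hour, the lowest adjusted p being that of Gyg1 at hour 5, where 0.351% of probe sets were called, and hour 8 called the most at 0.72%. The test for a difference at any hour called none of the 8, against 2.42% of probe sets (Gyg1 adjusted p = 0.43). The tests for any change over time called none either, in insulin cultures against 0.751% and in control cultures against 4.29% of probe sets. At time 0, before insulin, no probe set was called and 205 had an unadjusted p under 0.05.

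The remaining genes of the pathway were counted from 4 lists of 38 genes, of which 27 were tested. Over hours 1 to 8, 2 of the 27 were called higher and 1 lower with insulin, and over hours 5 to 8, 1 higher and 2 lower. Set against 5.53% higher and 6.63% lower over all probe sets in the first window and 4.02% and 5.33% in the second, these counts are near the background. The median difference of the 27 was 0.00 over hours 1 to 8 and -0.01 over hours 5 to 8, against 0.00 over all probe sets in both. None of the 6 tested subunits and inhibitors of protein phosphatase 1 and none of the 4 tested subunits of phosphorylase kinase was called in either window. Of the 12 genes for catalytic or regulatory subunits of other kinases known to phosphorylate glycogen synthase or to bind glycogen, 2 were called higher over hours 1 to 8 and 1 lower over hours 5 to 8. Of the 5 tested among 10 other genes of glycogen enzymes and glycogen-binding proteins, 1 was called lower over hours 1 to 8, and 1 lower and 1 higher over hours 5 to 8.

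Pgm2l1, which makes the glucose 1,6-bisphosphate that phosphoglucomutase needs, had the largest called difference among these. Its level over hours 5 to 8 was 7.76 at the lowest, 8.08 at the median and 8.19 at the highest of 12 insulin arrays, against 8.13, 8.41 and 8.67 in 12 control arrays. The insulin arrays lay almost wholly below the control arrays, with a difference of -0.41 ± 0.07 (SE, limma adjusted p = 2.5e-05). The call was lost with 1 mean per letter (adjusted p = 0.69, and 0.056 with the block) and relative to time 0 (-0.48, adjusted p = 0.26). At hours 1 and 2 it was 7.90 with insulin and 7.81 without, and the change between these windows was -0.50 ± 0.11 (SE, limma adjusted p = 0.014).

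Pgm2l1 also differed within the control cultures. It averaged 8.42 over hours 5 to 8 and 7.86 at time 0 in control cultures, a difference of 0.55 ± 0.10 (SE, limma adjusted p = 4.9e-04), which without letter c was 0.48 (adjusted p = 0.058). In the insulin cultures the 3 arrays of hour 8 read 7.89, 8.19 and 7.83 and those of time 0 read 8.00, 7.83 and 7.98. Over hours 1 to 8 the difference was -0.22 ± 0.05 (SE, limma adjusted p = 0.0014), but without letter a it was -0.16 (adjusted p = 0.055) and without letter c -0.17 (adjusted p = 0.13).

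The other named pathway genes differed less. Stbd1, a glycogen-binding receptor that brings glycogen to lysosomes, averaged 6.52 in insulin cultures and 6.32 in control cultures over hours 5 to 8 (difference 0.21 ± 0.06 SE, limma adjusted p = 0.011), and the adjusted p was 0.12 without letter a and 0.066 without letter c. Prkaa1, a catalytic subunit of AMP-activated protein kinase, averaged 9.70 with insulin and 9.84 without in the same hours (difference -0.14 ± 0.04 SE, limma adjusted p = 0.029), and the adjusted p was 0.37 without letter a and 0.32 without letter c. Csnk2a1, a catalytic subunit of casein kinase 2, which primes glycogen synthase for glycogen synthase kinase 3, was higher with insulin over hours 1 to 8 by 0.09 ± 0.03 (SE, limma adjusted p = 0.022), and the adjusted p was 0.69 without letter b and 0.18 without letter c, and the mean of its probe sets differed by 0.02 (adjusted p = 0.88). Csnk2a1 was already higher at time 0, before insulin, with means of 10.685 in insulin cultures and 10.565 in control cultures, and relative to time 0 its difference over hours 1 to 8 was -0.03 (limma adjusted p = 1.00). Dyrk2, a kinase that phosphorylates glycogen synthase, was higher with insulin over hours 1 to 8 by 0.11 ± 0.04 (SE, limma adjusted p = 0.040), and the adjusted p was 0.075 without letter a and 0.49 without letter b. Of 15 alternatives, 6 passed. Its probe sets differed in the test for any change over time in control cultures, which called 4.29% of probe sets. The limma adjusted p was 0.55 at the brightest and 0.29, 0.021 and 0.015 at the dimmer ones.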

How the data were processed

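RNA was measured on Affymetrix rat arrays. The authors subtracted background, applied quantile normalization and summarized probes with RMA, so the deposited levels are log2 values. Software versions are not given in the sources used here. Because quantile normalization fixes the distribution of every array, differences are relative to the other probe sets. Culture, hour and letter of each array came from the labels. The brightest 70.7% of probe sets by mean level, without the manufacturer's 57 controls, were tested. One symbol was annotated for 20832 probe sets, several for 436 and none for 9831.

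A mean for each group was estimated in limma 3.58.1 (R 4.3.3), with a variance trend over level. Its two-sided p-values were Benjamini-Hochberg adjusted over everything tested, with 0.05 as the threshold, and the code was tested on simulated data first. Letters are taken to mark the 3 days. In all 26 pairs of insulin and control arrays that share a letter and hour, deviations from the group means were correlated (r between 0.21 and 0.79), so the letter served as a block in an alternative fit. Other alternatives were 1 mean per letter, leaving out each letter or the early letter b arrays, subtracting the time 0 difference, 2 other filters on level, median centring, no variance trend, array weights and averaged probe sets. The text names all members, and from the pathway lists those genes that passed over hours 1 to 8, over hours 5 to 8 or over time in control cultures, at most 4 a list, and the 3 genes most like a member that passed. Members and lists were chosen with earlier results of these data known.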

Additional observations from a re-analysis of the deposited data

Results flagged for a closer look

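Differences at 2 times went opposite ways in all 3 letters for 2 of the 8 genes, as for 27.4% of all tested probe sets, and the contrast between those hours was not itself tested. Gyg1 was higher in insulin cultures in every letter at time 0, before insulin, by 0.089 on average, and lower in every letter at hour 5, with a mean difference of -0.22. A related test, hours 5 to 8 relative to time 0, gave -0.22 ± 0.08 (SE, limma adjusted p = 0.57).

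Gbe1 was higher with insulin in every letter at hour 2, by 0.14 on average, and lower in every letter at hour 8, with a mean difference of -0.22. At hour 2 the differences were 0.06, 0.34 and 0.03 in letters a, b and c. At time 0, before insulin, they were -0.16, 0.48 and -0.12. The nearest tested contrast, hours 5 to 8 minus hours 1 and 2, gave -0.26 (limma adjusted p = 0.38). Such pairs of hours were looked for among 8 genes and 9 times.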

How the results depend on the processing

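Of the 8 members, 1 was called over hours 1 to 8. This became 2 with the letter as a replicate block, 3 with array weights (Gyg1 and Pygb lower, Ugp2 higher), and 0 with 1 mean per letter, with or without the block, without the 12 early letter b arrays, and relative to the time 0 difference, with or without the block, an alternative chosen after seeing the data. Over hours 5 to 8, 1 member was called, against 9.35% of probe sets in either direction. This became 2 with the block, against 21.9%, and 0 with 1 mean per letter, with or without the block, relative to time 0, with or without the block, with median centring and with array weights. The block also called 1 member for the early to late change (0 on 1 mean per letter), against 12% of probe sets. It called 2 for control cultures against time 0, against 19.4%, and 1 over time in insulin cultures, against 5.68%. Array weights called 1 (Gbe1) for control cultures against time 0, where 1465 probe sets were called higher and 1242 lower. The block changed no other call of a member. Leaving out 1 letter gave between 0 and 1 called member over hours 1 to 8 (Ugp2 in place of Gyg1 without letter a), over hours 5 to 8 and over time in control cultures (Ugp2 without letter a). Without letter a, 19.1% of probe sets were called over hours 1 to 8 and 6.56% over time in control cultures. Over all probe sets 1215 were called higher and 1456 lower over hours 1 to 8, against 2564 and 3332 with the block, 2403 and 2830 with array weights, 384 and 625 without the early letter b arrays, 215 to 1860 and 469 to 2324 leaving out a letter, and 0 with 1 mean per letter (51 and 104 with the block). The cause of these shifts was not tested, except that fewer arrays or letters enter some fits.

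Directions that turned belonged to differences that had not passed, except that of Csnk2a1 over hours 1 to 8, which was -0.035 relative to time 0 and -0.034 with the block too. In the same setting Ugp2 was -0.070 (-0.076 with the block) and Gsk3a -0.0088 (-0.015 with the block). Gbe1 over hours 1 to 8 was 0.021 with array weights. Without the early letter b arrays Gsk3b was -0.048, and Pygb in insulin cultures against time 0 was -0.024. Leaving out a letter gave, over hours 1 to 8, -0.00026 to 0.14 for Gys1, -0.11 to 0.067 for Gbe1, -0.055 to 0.0024 for Pygm, -0.076 to 0.11 for Gsk3a and -0.036 to 0.078 for Gsk3b, and over hours 5 to 8 -0.0017 to 0.20 for Gsk3a and -0.11 to 0.15 for Gsk3b. Of 381 single gene values under alternatives, 300 kept direction and call, 55 lost the call, 9 gained it and 17 turned. Of the 3 Pygm probe sets, the dimmest was below the lowest level tested.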
